A study of Homo sapiens with 2 samples.

Results

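Early response genes are transcribed within minutes of a growth factor or stress signal, before any new protein is made, and many encode transcription factors that carry the signal onward. In the best known route, the kinase ERK phosphorylates ELK1 and its relatives, which sit with serum response factor (SRF) on the promoters of EGR1 and other early genes. In glioma cells growth factor receptors feed this route, and MYC is among the growth regulators that lie downstream of it. The genes described here are 10 of that class: the zinc finger factors EGR1, EGR2 and EGR3, the immediate early response proteins IER2, IER3 and IER5, the transcription factors MYC, SRF and KLF6, and the pseudokinase TRIB1. They were selected by gene symbol, and they were chosen from this contrast with its ratios already known, so every ratio below is a description and none is a test.

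The cells were U251, an established human glioma line, grown in DMEM with serum. Of 2 arrays (Affymetrix HG-U133_Plus_2, which reads the 3′ end of transcripts with sets of short probes), 1 was made from cells transfected with miR-31 and 1 from cells transfected with a control. The labels give no construct, no control sequence and no time between transfection and harvest. With 1 array per group there is no replicate spread and no p-value, and anything else that set the 2 cultures apart cannot be told apart from miR-31. RefSeq (GRCh38.p14) gives a mature strand of MIR31 at chr9:21512158-21512178 on the minus strand, shown here as a mature product of the microRNA that the labels name. Its seed, bases 2 to 8, is in capitals.

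hsa-miR-31-5p: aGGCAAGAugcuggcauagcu

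The labels do not say which strand of miR-31 was meant, no miR-31 level was measured here, and seed matches in the early response transcripts were not analysed here.

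Values are the deposited linear intensities. A ratio is log2(intensity + 16) on the miR-31 array minus the same on the control array, and a probe set was kept where its mean over both arrays, on the log2 scale, reached the median over probe sets, which corresponds to an intensity of 62.6. The brightest kept probe set stands for its gene. Of the 10 genes, 9 had a probe set with their symbol alone and all 9 had one that passed. EGR2 had none under its own symbol in the annotation supplied, so it is named only. The 9 genes were read by 18 probe sets, of which 14 passed and 4 were too dim. In all, 11792 genes were compared.

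IER3 and TRIB1 were far lower in the miR-31 array, SRF, IER5 and KLF6 were moderately lower, IER2, MYC and EGR1 differed little, and EGR3 was higher at a low level. Past 2-fold, 2 of the 9 genes were lower and 0 were higher, while of all genes compared 1.58% were past 2-fold in the lower direction and 3.74% in the higher. Ratios were below 0 for 7 of the 9, against 46.8% of all genes. The median ratio of the 9 was -0.48 and that of all genes 0.03. Because the genes were picked with these ratios in view, nothing is read from these counts. As a gauge of how well probe sets repeat one another, the SD of a single probe set's ratio was 0.337 on the log2 scale, from 3142 genes with exactly 2 kept probe sets. It leaves out differences between cultures. By that gauge 5 of the 9 genes lay more than 1 SD below 0, 1 lay more than 1 SD above, and 3 lay within 1 SD. Of all genes compared, 16.9% lay more than 1 SD below 0 and 23.4% more than 1 SD above. In bulk RNA, fewer cells with a transcript and less of it in each cell cannot be told apart.

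**Figure D1:**
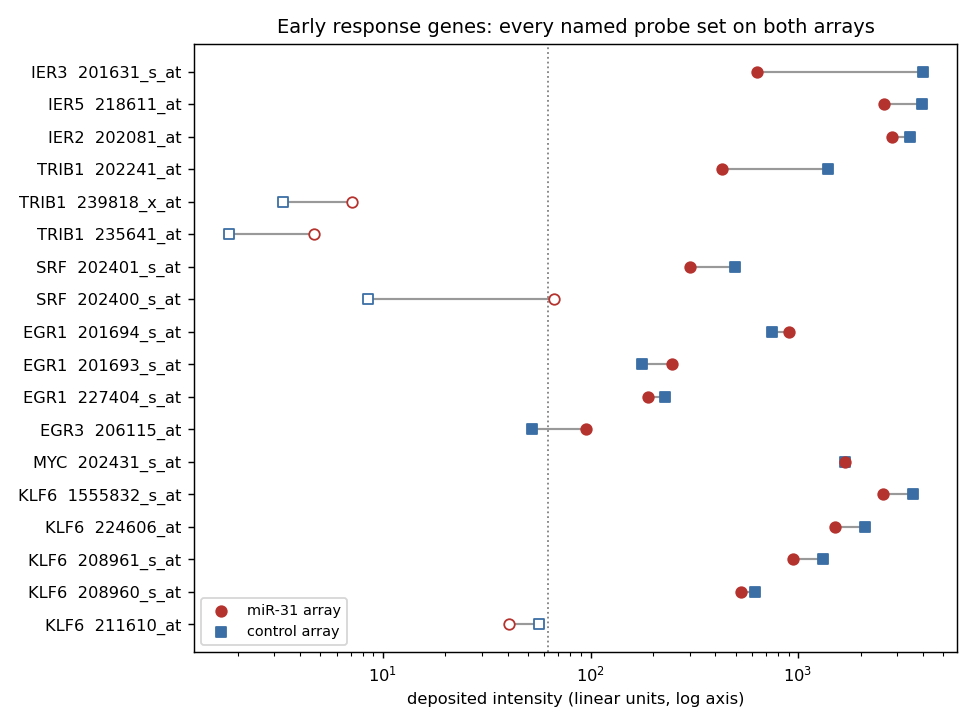
Deposited intensity (linear units, log axis) of each of the 18 probe sets on the miR-31 array (red circles) and the control array (blue squares), with open symbols for the 4 probe sets below the level minimum and a dotted line at that minimum, 62.6. IER3 and the bright TRIB1 probe set show the widest gaps among filled symbols, and the 2 MYC symbols lie on each other.

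The 3 immediate early response proteins differed from each other. IER3, a short-lived protein that modulates apoptosis and the duration of ERK signalling, had an intensity of 632.4 on the miR-31 array and 3987 on the control array. The level with miR-31 was 15.9% of the control level, a log2 ratio of -2.63. It held rank 6 from the lowest of 11792 genes. When the genes were divided by brightness into 4 classes of 2948, the class of IER3 held 3 genes, IER3 included, at or below its ratio. IER3 has 1 probe set, of the kind whose name ends in _s_at and whose probes may match more than 1 transcript, so no second reading on the array bears on it.

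IER5, which promotes activation of the heat shock factor HSF1, had 2599 on the miR-31 array and 3959 on the control array. That was 65.6% of control, a log2 ratio of -0.60. In the brightest class, 152 of 2948 genes had a ratio as low or lower. IER2, a nuclear protein induced by serum, had 2822 on the miR-31 array and 3443 on the control array, or 82.0% of control. Its log2 ratio of -0.29 lay within 1 SD of the probe set gauge. All of the IER genes were below 0, but the log2 ratio of IER3 minus that of IER2 was -2.34, and minus that of IER5 it was -2.02. Such gaps within the same pair of arrays do not change when each array is rescaled by a constant, apart from the small effect of the pseudocount.

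TRIB1, a pseudokinase scaffold that brings the ubiquitin ligase COP1 to the transcription factor C/EBP alpha, had 430.0 on the miR-31 array and 1397 on the control array. The level with miR-31 was 30.8% of the control level, a log2 ratio of -1.66 at rank 38 from the lowest. In the brightness class of TRIB1, 9 of 2948 genes including TRIB1 were at or below its ratio. Its other probe sets were far below the level minimum and say little: one had 7.10 on the miR-31 array and 3.30 on the control array, the other 4.67 on the miR-31 array and 1.80 on the control array. Their log2 ratios, 0.26 and 0.22, have the opposite sign from the bright probe set.

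**Figure D2:**
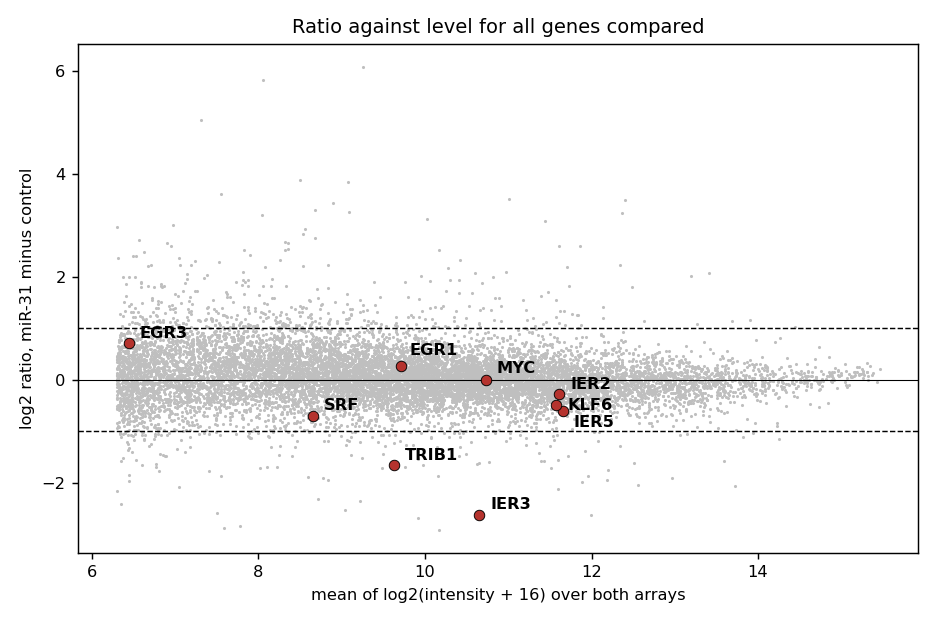
Log2 ratio, miR-31 minus control (y axis), against the mean of log2(intensity + 16) over both arrays (x axis) for all 11792 genes (grey), with the 9 early response genes in red and 2-fold lines dashed. IER3 (-2.63) and TRIB1 (-1.66) lie below the lower line, in a range of levels where most genes lie close to 0, and EGR3 lies at the dim edge, where the spread of all genes is widest.

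SRF, the factor that binds the CArG box of early gene promoters, had 300.7 on the miR-31 array and 498.6 on the control array. The level with miR-31 was 60.3% of the control level, a log2 ratio of -0.70. In its brightness class 133 of 2948 genes were as low or lower. The other SRF probe set went the other way, with 66.4 on the miR-31 array and 8.49 on the control array (1.75), but its mean level was below the minimum and it was not kept.

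EGR1 was read by 3 kept probe sets, which did not share a direction. The brightest had 899.7 on the miR-31 array and 746.5 on the control array, a log2 ratio of 0.26. A second had 248.1 on the miR-31 array and 177.3 on the control array (0.45). The remaining one had 189.5 on the miR-31 array and 228.9 on the control array (-0.25). Whether EGR1 was higher or lower in miR-31 cells therefore depends on the probe set, and the brightest one falls within 1 SD of 0. Centring on the poly-A spike-in controls turns that ratio to -0.29.

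EGR3, a relative of EGR1 with closely similar DNA-binding zinc fingers, had 95.3 on the miR-31 array and 52.3 on the control array. Its log2 ratio of 0.70 was the highest of the 9, on its single probe set. The control value lies under the level minimum, and in the dimmest class, where EGR3 falls, 7.29% of genes were past 2-fold higher and 2.41% past 2-fold lower. The robust SD of ratios was 0.56 in that class and 0.29 in the brightest. On the deposited scale neither EGR gene was lower on its brightest probe set, and the log2 ratio of SRF minus that of EGR1 was -0.96.

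For reference to the route from SRF to EGR1, the last 120 bases before a RefSeq start of each gene are shown. CArG boxes, the SRF-binding elements, are in capitals. A box was taken as an exact match to CCWWWWWWGG, where W is A or T, which reads the same on both strands. EGR1 is on the plus strand at chr5:138465359-138465478 and SRF on the plus strand at chr6:43171149-43171268, both GRCh38.p14.

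EGR1: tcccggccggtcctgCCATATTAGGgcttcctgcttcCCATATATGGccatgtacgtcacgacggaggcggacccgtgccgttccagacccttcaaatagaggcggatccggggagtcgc

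SRF: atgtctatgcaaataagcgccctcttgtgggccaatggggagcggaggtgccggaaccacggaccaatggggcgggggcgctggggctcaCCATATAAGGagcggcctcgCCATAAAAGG

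The EGR1 boxes begin at positions -105 and -83 from the start and the SRF boxes at -30 and -10. Promoter windows (250 bases before to 50 after a start) were used for 6 of the 10 genes, 9 windows in all. Windows on chr8 were left out of every search. A CArG box was found in 3 of these genes, EGR1, EGR2 and SRF, and in 3 of the 9 windows. SRF has a second window, with another start and no CArG box, which is not printed, and EGR2 holds its box in 1 of 3 windows. Of all promoters outside chr8, 1.29% of 35116 windows hold one. Further searches on both strands covered TGACGTCA, which 1.85% of windows hold, GCGTGGGCG (0.795%), CCGGAAGT (4.14%) and CACGTG (7.26%). Only CACGTG was found in a window of the 10 genes, in those of KLF6 and EGR2, and it overlaps no CArG box. IER5, IER2 and KLF6 had none of the CArG boxes in their windows. The windows of IER3, TRIB1, MYC and EGR3 were not used here. A match describes the letters of these windows and does not show binding. Of the 2 genes whose CArG boxes are printed, SRF was lower on its kept probe set, while the direction of EGR1 depends on the probe set. A link between the boxes and the ratios was not tested.

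MYC, the basic helix-loop-helix factor that drives ribosome and nucleotide synthesis, had 1676 on the miR-31 array and 1687 on the control array. The level with miR-31 was 99.3% of the control level and the log2 ratio was -0.01, from 1 probe set. The log2 ratio of TRIB1 minus that of MYC was -1.65. KLF6, a zinc finger factor of the Krüppel-like family, was read by 4 kept probe sets that were all lower. The brightest had 2569 on the miR-31 array and 3597 on the control array, or 71.4% of control (-0.48). Another had 1508 on the miR-31 array and 2105 on the control array (-0.48), and the next had 947.1 on the miR-31 array and 1323 on the control array (-0.47). The dimmest of the kept ones had 528.1 on the miR-31 array and 620.9 on the control array (-0.23). A KLF6 probe set below the minimum had 40.7 on the miR-31 array and 56.6 on the control array (-0.36). KLF6 is thus the gene of this group whose direction was read by the most probe sets, all 5 of them below 0.

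**Figure D3:**
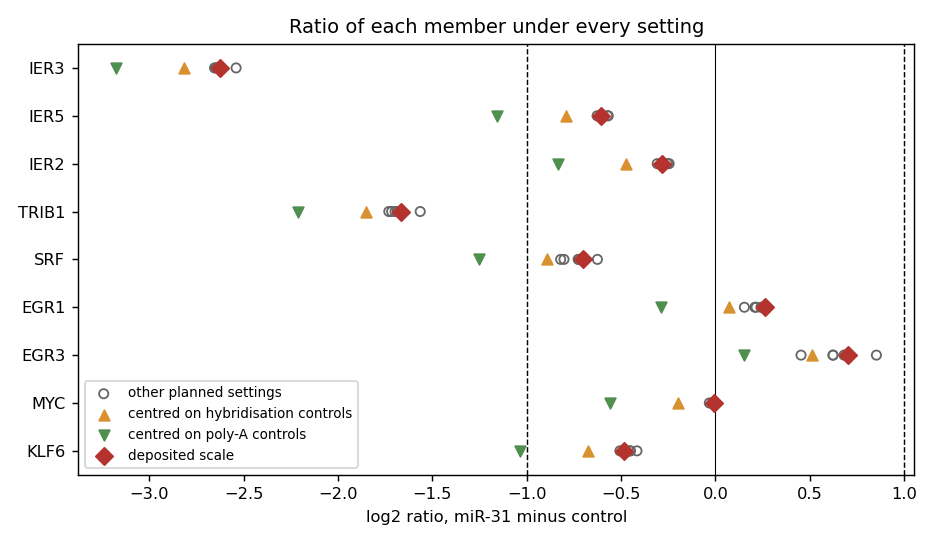
Log2 ratio, miR-31 minus control, of each early response gene on the deposited scale (red diamonds), under the other planned settings (open circles) and centred on hybridisation (orange) or poly-A (green) control probe sets. IER3 and TRIB1 lie below the 2-fold line at -1 in every setting that gives them a value, while IER5, SRF and KLF6 cross it only when centred on the poly-A controls.

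The scale matters for the moderate ratios. The bacterial hybridisation controls were 0.19 higher in the miR-31 array (median of 18 probe sets) and the poly-A spike-in controls 0.55 higher (24 probe sets), so centring on them moves every ratio, and the median of all genes, down by those amounts. IER3 lay between -3.18 and -2.54 over 10 alternatives and TRIB1 between -2.21 and -1.56 over 11. Under poly-A centring IER5 had -1.16, SRF -1.25 and KLF6 -1.03, which made 5 of the 9 genes at least 2-fold lower, as were 10.8% of all genes under that centring. The same centring gave MYC -0.56, and it left EGR3 at 0.15.

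Lists of related genes were set beside the 10 genes. Other immediate early genes were mixed. Of 31 listed, 23 were compared, 12 were below 0 (46.8% of all genes were) and 11 above, with a median ratio of -0.16. At least 2-fold lower were 2 of the 23 and none were higher, beside 1.58% and 3.74% of all genes in those directions. MAFF, a small MAF factor, had 880.9 on the miR-31 array and 2784 on the control array (-1.64, and -0.60 on its other probe set). SGK1, a serum-inducible kinase, had 860.0 on the miR-31 array and 2372 on the control array (-1.45). CCN2, a matricellular growth regulator, had -0.89, and NR4A1, an orphan nuclear receptor, had 0.89 with 112.2 on the miR-31 array and 53.3 on the control array. That NR4A1 control value lies under the level minimum of 62.6. FOS and FOSB were below the level minimum.

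SRF cofactors and cytoskeletal targets of SRF showed no shared direction. Of 5 cofactors compared, 3 were below 0 (46.8% of all genes were) and 0 passed 2-fold. Of all genes, 1.58% were past 2-fold lower and 3.74% past 2-fold higher. ELK3 had -0.43, MRTFA -0.41, ELK4 -0.20 and MRTFB 0.17. The 3 kept probe sets of MRTFA ran from -0.41 to 0.13. Of 13 cytoskeletal targets 6 were below 0 and 7 above, none passed 2-fold, and the median of 0.05 was below 0 in 4 of 11 alternatives. TPM1, an actin-binding tropomyosin, was lowest at -0.97 on its brightest of 5 probe sets, which ran up to -0.39. ACTA2, smooth muscle actin, had 0.97, TPM2 0.95 and FHL2, a LIM-domain cofactor, -0.71. The EGR co-repressor NAB1 had -0.17 and NAB2 had 0.51, and EGR4 was below the level minimum. NAB1 had 3 kept probe sets between -0.90 and 0.07.

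Genes that MYC is known to raise, most of them in ribosome and nucleotide synthesis, mostly had ratios below 0, while MYC itself had -0.01. Of 25 listed, 19 were compared, 17 had a ratio below 0 (46.8% of all genes did), and the median was -0.52. At least 2-fold lower was 1 of the 19 (1.58% of all genes were) and none were at least 2-fold higher (3.74% of all genes). RRP9, a component of the small nucleolar ribonucleoproteins that process ribosomal RNA, had 216.3 on the miR-31 array and 475.1 on the control array (-1.08). MRTO4, a ribosome assembly factor, had 1857 on the miR-31 array and 3531 on the control array (-0.92, and -0.75 on its other kept probe set). WDR74 had -0.84 and PA2G4 -0.80. LDHA, lactate dehydrogenase A, had the highest ratio in the list, 0.40, and was chosen for naming after its value was seen, as was NPM1 at 0.07. Over the alternatives the median ran from -1.07 to -0.46. Neither the list nor a link to MYC was tested.

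Of 9 genes of the MYC-MAX network compared, 6 were below 0 (46.8% of all genes were), and the median was -0.14. At least 2-fold higher was 1 of the 9 (3.74% of all genes were) and 0 were at least 2-fold lower (1.58% of all genes). MNT, a repressor that competes with MYC for MAX, had 1610 on the miR-31 array and 744.9 on the control array (1.10), but its other kept probe set had 0.08. MXD1 had -0.41, FBXW7, a ubiquitin ligase receptor for MYC, -0.32 and MAX -0.25, with 5 probe sets of MAX between -0.67 and 0.15.

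Around TRIB1, 6 of the 7 Tribbles partners compared were above 0 (53.2% of all genes were) and 2 were at least 2-fold higher (3.74% of all genes). CEBPA, the C/EBP alpha factor that TRIB1 and COP1 mark for degradation as protein, had 212.5 on the miR-31 array and 72.0 on the control array (1.38). CEBPD had 1251 on the miR-31 array and 593.7 on the control array (1.06). The control value of CEBPA lies close to the level minimum of 62.6. Centring on the poly-A controls, which moves every ratio down by 0.55, leaves CEBPA and CEBPD short of 2-fold higher. COP1 had 0.43 and CEBPB, the only partner below 0, had -0.41. The TRIB1 relatives, named after their values were seen, had ratios of 0.27 (TRIB2, and 0.81 on its other kept probe set) and 0.28 (TRIB3). By brightest probe set, TRIB1 alone among the Tribbles genes was lower on the deposited scale. Centring on the poly-A controls puts the brightest probe sets of TRIB2 and TRIB3 below 0 as well, but not the other TRIB2 probe set. The list median of 0.28 became -0.27 when centred on the poly-A controls. Of the 10 other KLF factors listed 8 were compared, 4 on each side of 0 and none past 2-fold. Of all genes, 46.8% were below 0, 1.58% past 2-fold lower and 3.74% past 2-fold higher. KLF5 had -0.81, KLF16 -0.47, KLF9 0.31 and KLF7 -0.27. One KLF16 probe set had -1.82, and probe sets of KLF9 and KLF7 fell on both sides of 0.

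**Figure D4:**
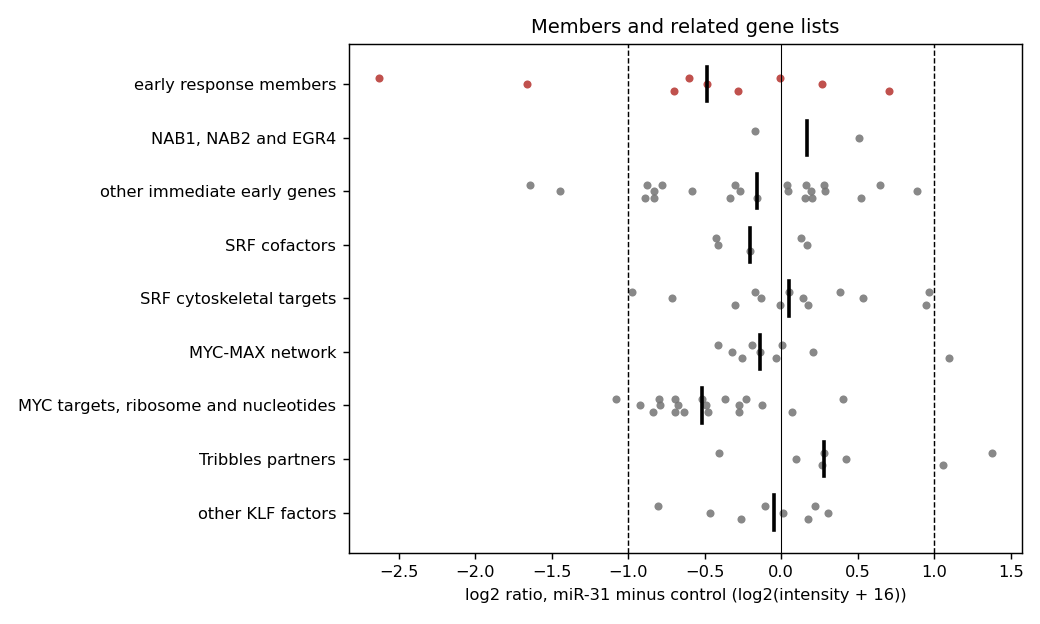
Log2 ratio, miR-31 minus control, of each gene compared (points; vertical position within a row has no meaning) with the median of each list as a black bar, 0 as a solid line and 2-fold as dashed lines. The early response genes span the widest range, from -2.63 to 0.70, and the MYC targets cluster below 0 with a median of -0.52.

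Median intensity was 67.6 on the miR-31 array and 63.2 on the control array. For GAPDH, whose control probe sets gauge RNA integrity, the signal at the 3′ end over that at the 5′ end was 1.01 with miR-31 and 0.949 in the control. The same ratio for ACTB was 2.17 with miR-31 and 2.39 in the control. Of 6 astroglial and glioma line markers 5 were compared, 3 of them below 0 (46.8% of all genes were), with a median ratio of -0.24. S100B was below the level minimum. GFAP, the astroglial filament, had 3624 on the miR-31 array and 2007 on the control array (0.85, and 1.03 on its other kept probe set). NES had -0.91, SOX9 -0.56 (and -0.64 on its other kept probe set) and CD44 -0.24. The other kept NES probe set had 0.03, and the 10 kept CD44 probe sets ran from -0.69 to 0.28. VIM, named after its value was seen, had 0.19, and 0.68 on its other kept probe set. Of 7 microglia and macrophage markers 2 passed the minimum. The highest intensity of the list was 100.9 with miR-31, for CSF1R (75.9 in the control), and 76.2 in the control, for ITGAM (61.4 with miR-31). The sum over the list was 319.9 with miR-31 and 241.2 in the control. Sums of markers here take each gene's brightest probe set on each array and include markers below the minimum. Of 7 lymphoid markers 1 passed, with sums of 335.5 with miR-31 and 217.0 in the control. Of 5 endothelial markers 2 passed, with sums of 491.3 with miR-31 and 759.4 in the control. KDR, an endothelial marker, had 280.9 on the miR-31 array and 539.2 on the control array (-0.90), well above the level minimum. PECAM1, the other endothelial marker that passed, had 0.03. The part of these marker differences in the results was not tested.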

How the data were processed

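The values deposited by the authors are linear intensities, 54675 probe sets by 2 arrays. Which software made them is not stated in the labels. Leaving out the lowest and highest 2% of probe sets, each array had a mean intensity of 499.9, so this summary had been matched between the arrays, although spike-in controls differed. Depth has no meaning for arrays, and having 1 array per group limits the precision. Symbols came from the platform annotation supplied: 41097 probe sets had 1 symbol, 1801 several and 11777 none, and 41043 of the first matched RefSeq by Entrez identifier. The 62 control probe sets were left out before the level minimum was taken.

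Ratios used a pseudocount of 16, alternatives 1 and 64. The calculation was tested on simulated data. The members and lists were chosen with earlier results of these data known. Genes of each related list were named if among the 4 with the largest absolute ratio or past 2-fold, and others are marked as chosen after their values were seen or as below the level minimum. No protein comparison was made. Alternatives were quantile normalization, median centring, loess (span 0.3), the level filter off or at the 70th percentile, the mean of probe sets, leaving out _s_at and _x_at probe sets, a 1.5-fold threshold, and, added after seeing the data, centring on spike-in controls. Python 3.11.15, numpy 2.4.6, pandas 2.3.3, statsmodels 0.14.6 and matplotlib 3.10.9 were used.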

Additional observations from a re-analysis of the deposited data

How the results depend on the processing

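No paired analysis was possible because there is a single array on each side, which also means that neither can be dropped. On the deposited scale 2 of the 9 early response genes were at least 2-fold lower. At a 1.5-fold threshold 4 were lower and 1 was higher (EGR3), beside 793 lower and 1376 higher of all 11792 genes. Centred on the poly-A controls, 5 were at least 2-fold lower, as were 10.8% of all genes. Without _s_at and _x_at probe sets the count was 1, beside 151 of 9158 genes. That setting leaves 5 of the 9 genes and has no value for IER3, SRF, MYC or EGR1, whose kept probe sets all end in _s_at. EGR3 is lost under the stricter filter. The median of the early response genes was -1.03 centred on the poly-A controls and between -1.03 and -0.42 over 11 alternatives. The same centring, which moves every ratio down by 0.55, gave list medians of -0.38 for the EGR co-repressors, -0.71 for other immediate early genes, -0.75 for SRF cofactors, -0.50 for SRF cytoskeletal targets, -0.69 for the MYC-MAX network, -1.07 for MYC targets, -0.27 for Tribbles partners and -0.60 for other KLF factors. Under the stricter filter the EGR co-repressor median, from NAB1 alone, was -0.17. Over all genes, 186 were at least 2-fold lower and 441 higher. The count at least 2-fold lower was 257 after quantile normalization (343 higher) and 245 after loess (352 higher). Without a level filter it was 1002 of 19775 genes (1184 higher), and with the stricter filter 112 of 8768 (223 higher). It was 124 with a pseudocount of 64 (283 higher). Centring on hybridisation controls gave 367 lower (266 higher), and centring on poly-A controls gave 1279 lower (124 higher).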
